A study of Homo sapiens with 16 samples.

Results

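The genes described here are 50 interferon-stimulated and antigen presentation genes, matched by gene symbol to the gene tables of a knockdown study of the MYB family. All 50 were listed in at least 1 of the 6 tables, which together list 19315 genes, and 34 of them were listed in all 6. RNA was sequenced from 2 human tumour lines, HCT116 (colorectal carcinoma) and U2OS (osteosarcoma), 48 hours after transfection with small interfering RNA (siRNA) against MYBL1 (siMYBL1), against MYBL2 (siMYBL2), against both (siMYBL1-siMYBL2, the double knockdown), or with a non-targeting siRNA (siCtrl). All groups, controls included, were therefore siRNA-transfected, and no group was given interferon per the labels. Each of the 8 groups held 2 biological replicates, 16 libraries in all. The study asked what MYBL1 (A-MYB) and MYBL2 (B-MYB), transcription factors of proliferating cells, do in the mitotic cell cycle. The data are the authors' own comparisons, 1 table for each knockdown against siCtrl of the same line, with no value for any single library.

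Interferons are secreted proteins that cells release when sensors detect foreign or misplaced nucleic acid. Type I interferon binds IFNAR1 and IFNAR2, the kinases JAK1 and TYK2 are activated, and a complex that includes STAT2 and IRF9 binds a promoter element called ISRE, while type II interferon acts through an element called GAS. The induced genes encode RNA sensors, antiviral effectors, the ISG15 conjugation system, and the proteasome subunits, peptide transporter and class I molecules that present peptides on the cell surface. Many of these genes have a basal level in cells that have not met interferon.

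Promoter letters of the members are shown for those that passed a test in any table and for the IFIT family, since these are the genes on which the results turn. The 250 bases upstream of RefSeq gene starts (GRCh38.p14) were searched on both strands for the ISRE letters GAAANNGAAA and the GAS letters TTCNNNGAA, where N is any base. Of the 50 members, 40 had a promoter in the RefSeq table, with DDX58 matched under its current symbol RIGI. The ISRE letters were found in 23 of these 40 members (57.5%) and in 3.71% of 27305 genes. The GAS letters were found in 11 of the 40 (27.5%) and in 8.09% of genes. The window shown is 1 per gene, and the search also found a second ISRE match for IFIT5 and OAS3, 3 more for IFIT3 and a GAS match for TAP1. Sequences run 5′ to 3′ along the gene's strand with each match in capitals, and a match is a description of letters, not a shown binding site.
IFIT1, chr10:89392504-89392532, plus strand, ISRE letters at 2 places: tagTTTCACTTTCcccTTTCGGTTTCcct
IFIT3, chr10:89332468-89332497, plus strand, ISRE letters: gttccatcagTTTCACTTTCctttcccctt
IFIT5, chr10:89414513-89414542, plus strand, ISRE letters: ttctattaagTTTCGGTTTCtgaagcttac
OAS3, chr12:112938321-112938350, plus strand, ISRE letters: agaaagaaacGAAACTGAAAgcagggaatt
IFITM3, chr11:320885-320913, minus strand, ISRE letters at 2 places: gGAAAAGGAAActgttgaGAAACCGAAAc
ISG20, chr15:88638937-88638966, plus strand, ISRE letters: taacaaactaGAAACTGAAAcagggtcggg
TAP1, chr6:32853816-32853845, minus strand, ISRE letters at 2 overlapping places: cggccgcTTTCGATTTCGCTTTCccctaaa
IRF1, chr5:132490879-132490907, minus strand, GAS letters: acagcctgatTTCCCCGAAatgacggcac
PSMB8, chr6:32844094-32844122, minus strand, GAS letters: aactgtccttTTCTCGGAAaaggcagggg
IFIT1, which fell in U2OS, and IFIT5, OAS3, IFITM3, ISG20 and TAP1, which rose there, all hold the ISRE letters in this stretch. Neither set of letters was found for DDX58. For IFIT2, USP18, IFITM2 and TRIM22 no promoter was read.

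The knockdowns and the lines were checked first. In the authors' deposited tables, MYBL1 had log2 fold changes over siCtrl of -1.67 and -1.85 in HCT116 and -0.98 and -1.20 in U2OS with siMYBL1 alone and in the double knockdown. MYBL2 stood at -3.47 and -3.33 in HCT116 and -4.47 and -4.53 in U2OS with siMYBL2 and in the double knockdown, per the authors' deposited tables. The base mean, which is the mean normalized count over the 4 libraries of a comparison, was 5529 to 5819 for the epithelial marker EPCAM in HCT116 and 21091 to 23722 for the mesenchymal marker VIM in U2OS, in the authors' deposited tables. The 12 epithelial markers had summed base means of 75755 to 85841 in HCT116 and 48544 to 54320 in U2OS, so as a list they were high in both lines. The 12 mesenchymal and bone markers summed to 1077 to 1453 in HCT116 and 75887 to 85429 in U2OS. Of 12 blood cell markers 1 to 4 were listed per table, with summed base means of 49.5 to 129.4 against 17441617 to 19826741 for all listed genes and PTPRC, CD3E and CD14 listed in none. In the U2OS double knockdown, of 12 mesenchymal and bone markers 10 were listed, 4 called higher and 1 lower, where 6.55% and 6.06% of all genes were, and the lower one was VIM, with a log2 fold change of -0.71 (SE 0.17) in the authors' deposited table. Of 9 listed epithelial markers 1 was called lower there, KRT18. In the HCT116 double knockdown, of 11 listed epithelial markers CDH1 and KRT19 were called higher and ESRP1 lower, where 2.82% and 4.12% of all genes were. The part of these markers in the results was not tested. The sequencing depth of single libraries is unknown.

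Each member is described by its log2 fold change of knockdown over siCtrl with its standard error (SE), and is called higher or lower where the authors' Wald test gave an adjusted p under 0.05. A group level is the normalized count of a group that the deposited base mean and fold change together imply, and it carries no spread of its own. The siCtrl levels implied by the 3 tables of a line differed by a median factor of 1.08 in HCT116 and 1.05 in U2OS over the members, up to 1.22 and 1.35. In bulk RNA, fewer cells carrying a transcript and less transcript per cell cannot be told apart.

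In HCT116 few members were called. With siMYBL1, 0 of 47 listed members were called higher and 0 lower by the authors' Wald test, against 0.115% and 0.144% of all genes, and 1 member had an unadjusted p under 0.05, as did 4.57% of all genes. With siMYBL2, 1 of 39 was called higher and 0 lower, against 0.291% and 0.837% of all genes, and 4 had an unadjusted p under 0.05, as did 8.07% of all genes. In the double knockdown, 2 of 37 were called higher and 0 lower, against 2.82% and 4.12% of all genes, and 7 had an unadjusted p under 0.05, a share close to the 18.5% of all genes. The members' median log2 fold changes were -0.04, 0.19 and 0.15 for siMYBL1, siMYBL2 and the double knockdown, and those of all genes 0.00, -0.02 and -0.02. In the same order, 46.8%, 79.5% and 67.6% of the members had values above 0, against 50.3%, 47.1% and 47.6% of all genes.

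In U2OS more members were called, and not all in 1 direction. With siMYBL1, 0 of 41 listed members were called higher and 2 lower, against 3.44% and 2.27% of all genes, with 7 members at an unadjusted p under 0.05, of which 6 were lower, a share close to the 16.9% of all genes. With siMYBL2, 2 of 42 were called higher and 0 lower, against 1.69% and 3.51% of all genes, with 7 at an unadjusted p under 0.05, all of them higher, where 14.3% of all genes reached it. In the double knockdown, 10 of 44 (22.7%) were called higher and 1 lower, against 6.55% and 6.06% of all genes. The members were chosen with earlier results of these data known, so the higher share in the double knockdown is not an independent result. An unadjusted p under 0.05 was reached there by 20 members, 17 higher and 3 lower, and by 23.1% of all genes. There, 33 of the 44 members (75.0%) had a log2 fold change above 0, against 50.8% of all genes, and the median was 0.41 against 0.01. The median was -0.09 against 0.02 with siMYBL1 and 0.26 against 0.01 with siMYBL2. The share of members above 0 was 41.5% against 52.2% with siMYBL1 and 78.6% against 50.7% with siMYBL2, so it was not highest in the double knockdown. The 3 comparisons of a line share their siCtrl libraries, so their values are not independent of each other.

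**Figure D1:**
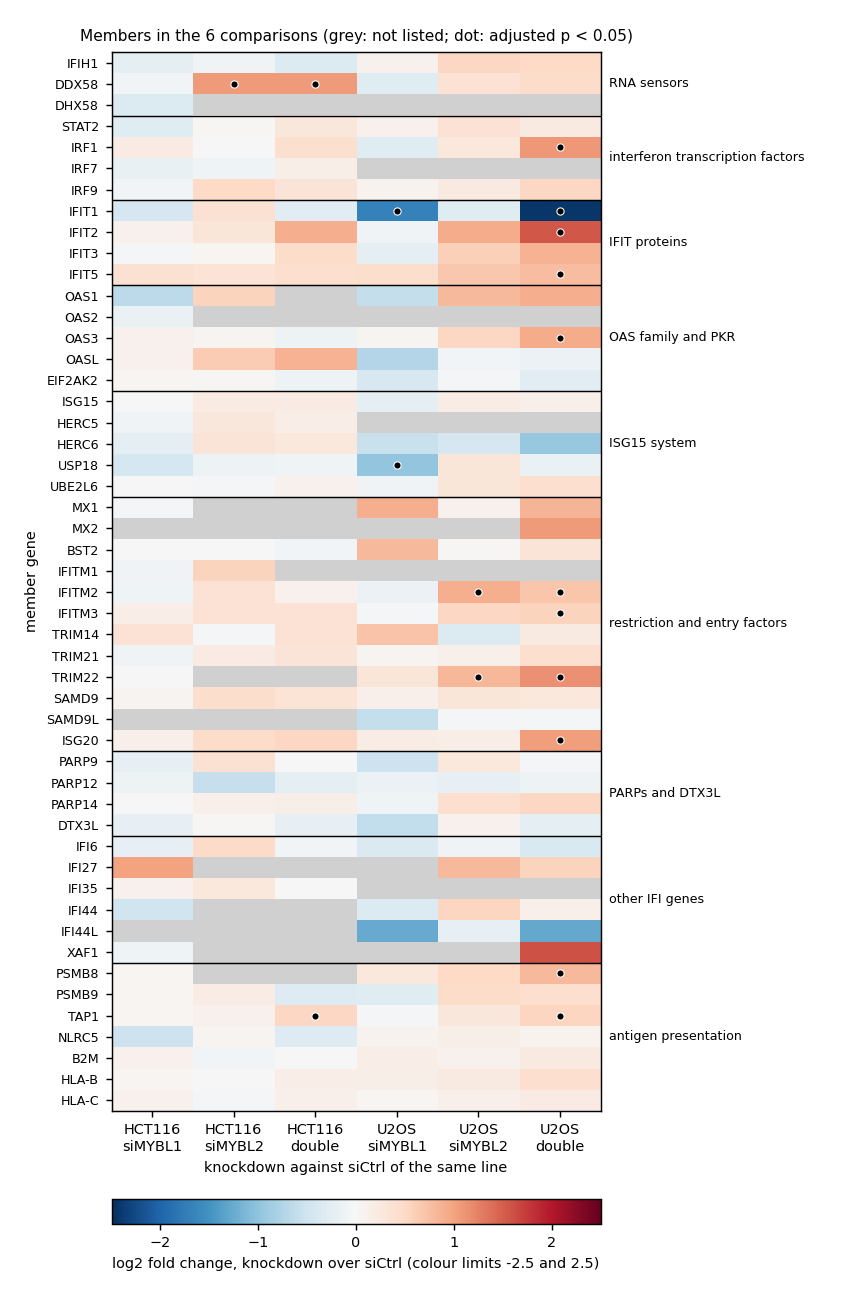
Log2 fold change of each of the 50 members (rows, grouped by role) in the 6 comparisons (columns), from blue (lower than siCtrl) to red (higher), with grey where a gene is not listed and a dot where the adjusted p is under 0.05. The dots gather in the U2OS double knockdown, with 10 higher members and 1 lower member, IFIT1, which is also the darkest blue field.

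Of the 50 members 13 were called at least once, 37 never, and none in both directions. The same counts were not made over all genes, so these do not set the members apart from other genes. Not every member could be measured everywhere. IRF7, HERC5, IFI35, DHX58, OAS2 and IFITM1 were listed in no U2OS table, and MX2, SAMD9L and IFI44L in no HCT116 table. Tables listed genes down to a base mean between 4.46 and 40.4, so a member of low level can be absent from 1 table of a line and present in another.

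Among the sensors of viral RNA, DDX58 was called in HCT116. It encodes RIG-I, the cytosolic sensor of RNA with a 5′ triphosphate (chromosome 9, 32455302 to 32526208, minus strand, hg38). Its implied level went from 131.4 with siCtrl to 276.6 with siMYBL2, and from 144.1 to 299.7 in the double knockdown. DDX58 rose by a log2 fold change of 1.07 (SE 0.29, Wald adjusted p = 0.0292) with siMYBL2 and 1.06 (SE 0.31, Wald adjusted p = 0.0164) in the double knockdown, per the authors' deposited tables. With siMYBL1 alone its value in the authors' deposited table was -0.08 (SE 0.34), and its implied levels were 135.8 and 128.8. In U2OS DDX58 was called in no table: the authors' deposited values were -0.31 (SE 0.30), 0.36 (SE 0.27) and 0.47 (SE 0.27) for siMYBL1, siMYBL2 and the double knockdown. IFIH1 encodes MDA5, the sensor of long double-stranded RNA, and did not follow DDX58 in HCT116. Its log2 fold changes there were -0.24 (SE 0.28), -0.09 (SE 0.29) and -0.34 (SE 0.29) in the authors' deposited tables, none of them called. DHX58 encodes LGP2, their relative, and was listed only in HCT116 with siMYBL1, at a base mean of 14.0 and -0.34 (SE 1.01) in the authors' deposited table.

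Among the transcription factors of the response, IRF1 alone was called, and only in the U2OS double knockdown. IRF1 is an activator that binds promoters of antiviral and antigen presentation genes (chromosome 5, 132440440 to 132508719, minus strand). Its implied level in U2OS was 243.9 with siCtrl and 519.9 in the double knockdown, while it went from 294.0 to 239.2 with siMYBL1 and from 303.7 to 362.4 with siMYBL2. In the authors' deposited tables, IRF1 rose by 1.09 (SE 0.24, Wald adjusted p = 2.12e-04) in the double knockdown and had -0.30 (SE 0.28) and 0.25 (SE 0.26) with siMYBL1 and siMYBL2, neither called. The siCtrl levels that these 3 tables imply for IRF1 span a factor of 1.24, which is more than for most members. Reads from C5orf56, which overlaps IRF1 on the opposite strand, cannot be separated from IRF1 if strand was not used in counting, and that setting is not given in the sources used here. STAT2 and IRF9, parts of the ISRE-binding complex, were not called in any table. In the U2OS double knockdown the authors' deposited table gave 0.23 (SE 0.23) for STAT2 and 0.52 (SE 0.28) for IRF9. IRF7, an amplifier of type I interferon production, was listed in the 3 HCT116 tables, between -0.18 and 0.15 in the authors' deposited values.

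In the U2OS double knockdown the IFIT family held calls in both directions. IFIT proteins are tetratricopeptide repeat proteins of the antiviral response: IFIT1 binds RNA whose cap lacks 2′-O-methylation, IFIT2 and IFIT3 form complexes with it, and IFIT5 binds RNA with a 5′ triphosphate. Their genes lie side by side on chromosome 10, all on the plus strand, and in the deposited annotation (hg38) IFIT2 spans 89283694 to 89309271, IFIT1 89392546 to 89406487 and IFIT5 89414568 to 89421605. In the U2OS double knockdown IFIT1 fell to 18.6% of control, from an implied level of 348.4 to 64.7, while IFIT2 went from 38.2 to 112.0 and IFIT5 from 310.9 to 527.9. In the authors' deposited table IFIT1 fell by 2.43 (SE 0.32, Wald adjusted p = 8.58e-12), with a 95% interval from -3.06 to -1.79. IFIT2 rose by 1.55 (SE 0.51, Wald adjusted p = 0.0219) and IFIT5 by 0.76 (SE 0.26, Wald adjusted p = 0.0281) in the same authors' deposited table. The interval of IFIT2 is wide, from 0.56 to 2.55, and IFIT2 shares exon sequence with LIPA on the opposite strand. IFIT3 had 0.86 (SE 0.43, Wald adjusted p = 0.200) per the authors' deposited table and was not called. So 3 of the 4 genes had values above 0, and IFIT1 was the only member of all 44 called lower.

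With siMYBL1 alone IFIT1 also fell in U2OS, to 30.9% of control, from an implied 342.1 to 105.6. The authors' deposited table gave -1.70 (SE 0.35, Wald adjusted p = 1.49e-04). Its neighbours were not called: the authors' deposited values were -0.08 (SE 0.62) for IFIT2, -0.22 (SE 0.50) for IFIT3 and 0.44 (SE 0.27) for IFIT5. The 95% intervals of IFIT2 and IFIT3 are wide and overlap that of IFIT1, and the difference between the genes was not tested. With siMYBL2 alone the implied IFIT1 levels in U2OS were 359.2 and 289.6, and the authors' deposited value of -0.31 (SE 0.26) was not called, whereas IFIT2, IFIT3 and IFIT5 had 0.92 (SE 0.51), 0.60 (SE 0.43) and 0.67 (SE 0.27), also not called. In HCT116 no IFIT gene was called. IFIT1 had -0.41 (SE 0.37), 0.39 (SE 0.33) and -0.25 (SE 0.35) in the authors' deposited HCT116 tables, with implied siCtrl levels of 129.0 to 139.3. For the HCT116 double knockdown the authors' deposited table gave 0.91 (SE 0.37, Wald adjusted p = 0.127) for IFIT2 and 0.43 (SE 0.22, Wald adjusted p = 0.267) for IFIT5.

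**Figure D2:**
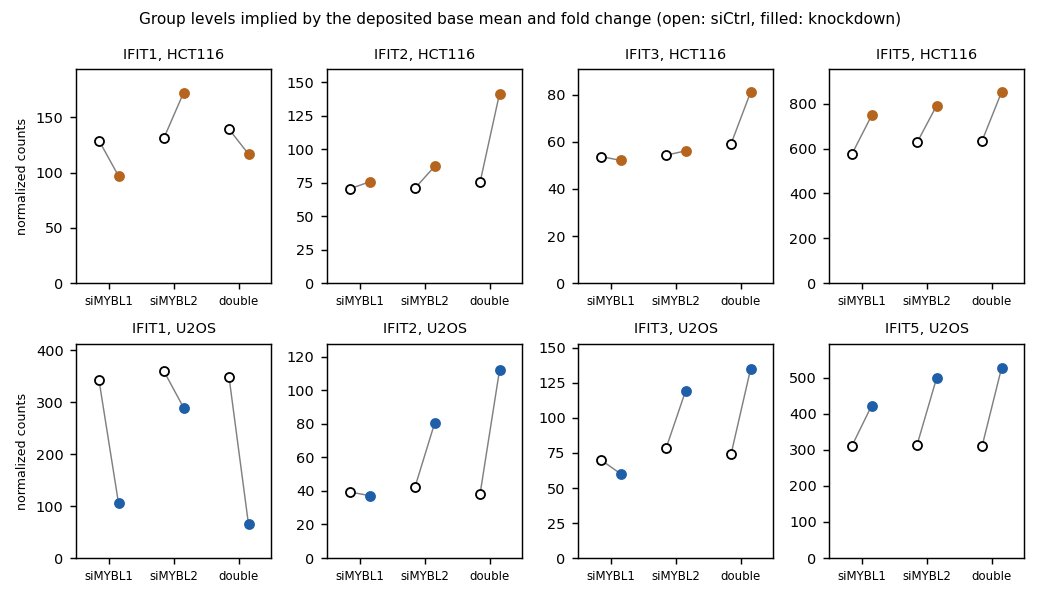
Group levels of the 4 IFIT genes (columns) in HCT116 and U2OS (rows) in normalized counts, computed from the deposited base mean and fold change, with siCtrl open and knockdown filled for each comparison and no spread shown. In U2OS the IFIT1 level falls from 348.4 to 64.7 in the double knockdown and from 342.1 to 105.6 with siMYBL1, while IFIT2 and IFIT5 go up in the double knockdown.

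The oligoadenylate synthetases make the 2′-5′ linked messenger that switches on RNase L, and EIF2AK2 encodes PKR, the kinase that stops translation in response to double-stranded RNA. OAS3 (chromosome 12, 112938051 to 112976460) was the only gene of this role to be called. Its implied level in U2OS was 696.5 with siCtrl and 1319 in the double knockdown, and the authors' deposited table gave a rise of 0.92 (SE 0.22, Wald adjusted p = 4.32e-04). With siMYBL1 and siMYBL2 alone the authors' deposited U2OS values of OAS3 were 0.07 (SE 0.26) and 0.51 (SE 0.24), not called. In HCT116, where OAS3 has an implied siCtrl level of 1307 to 1421, its values were 0.10 (SE 0.15), 0.07 (SE 0.18) and -0.12 (SE 0.16) in the authors' deposited tables. OAS1 had 0.90 (SE 0.39, Wald adjusted p = 0.126) in the U2OS double knockdown in the authors' deposited table, and OASL had 0.87 (SE 0.36, Wald adjusted p = 0.139) in the HCT116 one. OASL had -0.14 (SE 0.48) in the U2OS double knockdown, so within this role the uncalled values do not line up between the lines. PKR stood at -0.41 (SE 0.18, Wald adjusted p = 0.184) with siMYBL1 and -0.28 (SE 0.18, Wald adjusted p = 0.367) in the double knockdown in U2OS, and between -0.13 and 0.05 in HCT116, in the authors' deposited EIF2AK2 values. OAS2 was listed only in HCT116 with siMYBL1, at a base mean of 4.76.

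ISG15 is a ubiquitin-like protein that UBE2L6 and HERC5 attach to targets and USP18 removes, and USP18 also damps signalling at IFNAR2. USP18 (chromosome 22, 18150118 to 18177397) was the one member of this system to be called. In U2OS with siMYBL1 it fell to 50.4% of control, from an implied 234.1 to 117.9, and the authors' deposited table gave -0.99 (SE 0.33, Wald adjusted p = 0.0488), close to the threshold. In the double knockdown USP18 stood at -0.17 (SE 0.30) and with siMYBL2 at 0.31 (SE 0.29) in the authors' deposited tables, not called, and the difference of double knockdown minus siMYBL1, 0.82 (SE 0.45), did not pass. All 4 listed genes of the system had values below 0 with siMYBL1 in U2OS, with a median of -0.40. ISG15 itself had -0.24 (SE 0.30), 0.18 (SE 0.29) and 0.13 (SE 0.27) in U2OS in the authors' deposited tables. HERC6, a relative of HERC5, was the lowest of the role in the U2OS double knockdown at -0.94 (SE 0.37, Wald adjusted p = 0.0712) in the authors' deposited table, going from an implied 209.0 to 108.8, and was not called. UBE2L6 had 0.41 (SE 0.21, Wald adjusted p = 0.203) there in the authors' deposited table. HERC5 was listed only in HCT116, between -0.09 and 0.27 in the authors' deposited values.

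Of the restriction and entry factors, the role with the most members, 4 of 11 listed were called higher in the U2OS double knockdown and 0 lower, against 6.55% and 6.06% of all genes, and 10 of the 11 had values above 0. TRIM22 is a ring-finger protein that restricts several viruses (chromosome 11, 5689610 to 5737089). Its implied U2OS level was 601.0 and 741.9 for siCtrl and siMYBL1, 611.4 and 1094 for siCtrl and siMYBL2, and 593.4 and 1303 for siCtrl and the double knockdown. TRIM22 rose by 0.84 (SE 0.20, Wald adjusted p = 0.00127) with siMYBL2 and 1.14 (SE 0.19, Wald adjusted p = 2.11e-07) in the double knockdown, per the authors' deposited tables, and had 0.30 (SE 0.22) with siMYBL1. In HCT116 the gene was listed in 1 table only, at a base mean of 21.8 against 671.4 to 948.4 in U2OS, tables that were normalized separately. IFITM2 and IFITM3 are membrane proteins that block fusion of viruses in endosomes (chromosome 11, 303655 to 309397 and 319676 to 329475). IFITM2 rose by 0.91 (SE 0.21, Wald adjusted p = 0.00104) with siMYBL2 and 0.69 (SE 0.23, Wald adjusted p = 0.0232) in the double knockdown, per the authors' deposited U2OS tables, from implied levels of 420.3 to 790.9 and of 397.7 to 641.7. IFITM3 rose by 0.57 (SE 0.20, Wald adjusted p = 0.0381) in the double knockdown, per the authors' deposited table, and its 0.51 (SE 0.20, Wald adjusted p = 0.126) with siMYBL2 was not called. With siMYBL1 both stood near 0 in U2OS, at -0.14 (SE 0.26) and -0.04 (SE 0.22) in the authors' deposited table. In HCT116 IFITM3 had 0.37 (SE 0.15, Wald adjusted p = 0.381) with siMYBL2 and 0.37 (SE 0.14, Wald adjusted p = 0.0847) in the double knockdown, per the authors' deposited tables. The IFITM genes are near-identical copies and reads may be split between them, so their separate values are uncertain.

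ISG20, an exonuclease that degrades RNA (chromosome 15, 88635670 to 88656483), went from an implied 106.4 to 218.3 in the U2OS double knockdown. The authors' deposited table gave a rise of 1.04 (SE 0.33, Wald adjusted p = 0.0185), and 0.19 (SE 0.38) and 0.17 (SE 0.36) with siMYBL1 and siMYBL2 in the same line. The other members of this role were called in no table. TRIM14, an adaptor of the MAVS pathway, had 0.71 (SE 0.30, Wald adjusted p = 0.164) with siMYBL1, -0.34 (SE 0.29, Wald adjusted p = 0.749) with siMYBL2 and 0.22 (SE 0.26, Wald adjusted p = 0.704) in the double knockdown, per the authors' deposited U2OS tables. TRIM21, a cytosolic antibody receptor, had 0.42 (SE 0.21) and SAMD9, a translation inhibitor, 0.26 (SE 0.28) in the U2OS double knockdown in the authors' deposited table, while SAMD9L, its relative, had -0.03 (SE 0.34). MX1, MX2 and BST2 had base means of 16.1 to 40.6 in the U2OS tables that listed them and SE between 0.62 and 0.93, so a doubling could not be called there. BST2, which tethers budding virus, had base means of 219.9 to 234.3 in HCT116 and values between -0.06 and 0.01 in the authors' deposited tables. IFITM1 was listed in 2 HCT116 tables, at -0.08 (SE 0.68) and 0.55 (SE 0.55) with siMYBL1 and siMYBL2 in the authors' deposited values.

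**Figure D3:**
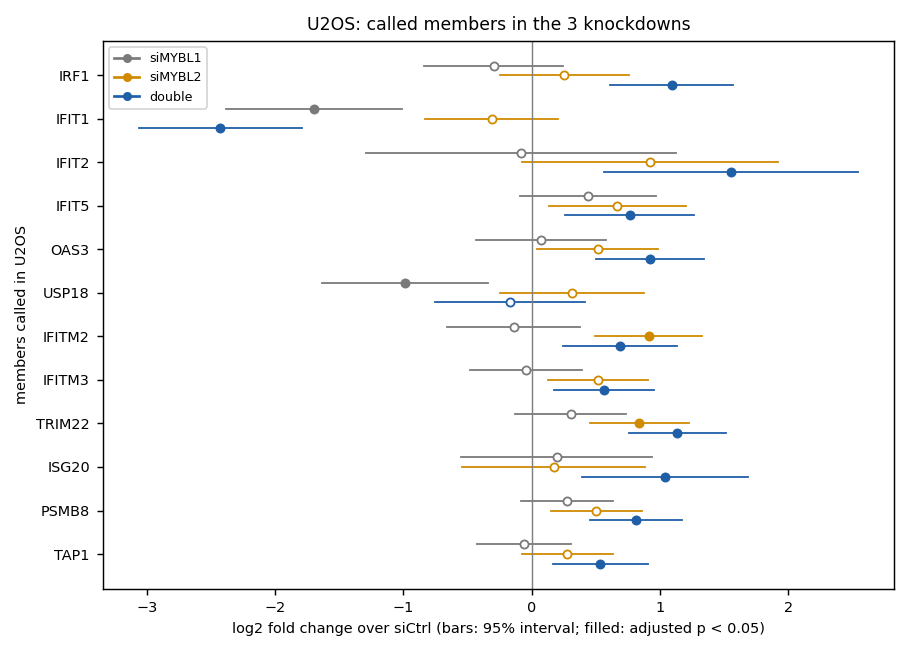
Log2 fold change over siCtrl in U2OS (x axis, bars are 95% intervals) of the 12 members called in any U2OS table, for siMYBL1 (grey), siMYBL2 (orange) and the double knockdown (blue), with filled points where the adjusted p is under 0.05. IFIT1 lies left of 0 with siMYBL1 and in the double knockdown, USP18 with siMYBL1, and the other 10 genes lie right of 0 in the double knockdown.

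PARP9 and DTX3L form a heterodimer that modifies histones and ubiquitin in the interferon response, and PARP12 and PARP14 are ADP-ribosyltransferases. No member of this role was called in any table. In U2OS with siMYBL1 all 4 had values below 0, and DTX3L and PARP9 were lowest at -0.61 (SE 0.25, Wald adjusted p = 0.142) and -0.52 (SE 0.26, Wald adjusted p = 0.290) in the authors' deposited table. PARP9 and DTX3L are transcribed from opposite strands of 1 locus and their exons overlap, so their reads can be mixed. PARP14 had 0.51 (SE 0.24, Wald adjusted p = 0.161) in the U2OS double knockdown in the authors' deposited table, the only value above 0 of the role there. PARP12 had -0.57 (SE 0.22, Wald adjusted p = 0.311) in HCT116 with siMYBL2 in the authors' deposited table, the lowest of the 39 members listed there. Thus the role held uncalled values on both sides of 0 within a comparison.

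The remaining interferon-induced (IFI) genes are less well understood and were mostly of low level. IFI6, a mitochondrial protein that limits apoptosis, had base means of 633.3 to 721.6 in U2OS and values of -0.35 (SE 0.21), -0.09 (SE 0.20) and -0.39 (SE 0.22) in the authors' deposited tables, not called. IFI44L had -1.26 (SE 0.57, Wald adjusted p = 0.204) with siMYBL1 and -1.28 (SE 0.52, Wald adjusted p = 0.0885) in the double knockdown, per the authors' deposited U2OS tables, the lowest values after IFIT1, at base means of 47.1 and 58.7. Its neighbour in family, IFI44, had -0.34 (SE 0.50) and 0.13 (SE 0.48) in the same authors' deposited tables. XAF1, an antagonist of XIAP, had the highest value of all members in the U2OS double knockdown, 1.59, but at a base mean of 26.9 with SE 0.79 and a Wald adjusted p of 0.198 in the authors' deposited table. IFI27 had 0.81 (SE 0.71) with siMYBL2 and 0.55 (SE 0.78) in the double knockdown, per the authors' deposited U2OS tables. IFI35 was listed only in HCT116, between 0.01 and 0.27 in the authors' deposited values.

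The antigen presentation genes had values above 0 throughout in the U2OS double knockdown, 7 of 7, with a median of 0.41, but 2 passed the test. With siMYBL2 alone in U2OS, 7 of 7 were also above 0, with a median of 0.23, and with siMYBL1 5 of 7, with a median of 0.08. In HCT116 6 of 7, 4 of 6 and 4 of 6 were above 0 with siMYBL1, siMYBL2 and the double knockdown. The medians there were 0.05, 0.03 and 0.07. Of all genes 47.1% to 52.2% had values above 0 across the comparisons, and 6.55% were called higher in the U2OS double knockdown. PSMB8 encodes a catalytic subunit of the immunoproteasome, which cuts the peptides for class I molecules, and TAP1 a subunit of the transporter that carries them into the endoplasmic reticulum. The genes are neighbours in the class II region of the MHC (chromosome 6, minus strand, 32840717 to 32844679 and 32845209 to 32853816). PSMB8 went from an implied 1117 to 1959 in the U2OS double knockdown, a rise of 0.81 (SE 0.18, Wald adjusted p = 2.46e-04) in the authors' deposited table. Its values with siMYBL1 and siMYBL2 alone were 0.27 (SE 0.18) and 0.50 (SE 0.18, Wald adjusted p = 0.0840) in the authors' deposited tables. In HCT116 PSMB8 was listed only with siMYBL1, at a base mean of 6.19 against 1213 to 1538 in U2OS, so its response there could not be measured.

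TAP1 was the only member called in both lines. Its implied level rose from 991.1 to 1425 in the HCT116 double knockdown and from 1069 to 1546 in the U2OS one. The authors' deposited tables gave 0.52 (SE 0.17, Wald adjusted p = 0.0284) and 0.53 (SE 0.19, Wald adjusted p = 0.0404). With the single knockdowns TAP1 had 0.04 (SE 0.16) and 0.11 (SE 0.17) in HCT116 and -0.06 (SE 0.19) and 0.28 (SE 0.18) in U2OS, none called, in the authors' deposited tables. PSMB9, the immunoproteasome gene that faces TAP1, had 0.41 (SE 0.23, Wald adjusted p = 0.260) in the U2OS double knockdown and -0.33 (SE 0.43, Wald adjusted p = 0.770) in the HCT116 one in the authors' deposited tables. Exons of PSMB8, PSMB9 and the antisense gene PSMB8-AS1 overlap in this locus, and TAP1 overlaps PSMB8-AS1, so part of the reads may be shared. The class I heavy chains and their light chain were not called: in the U2OS double knockdown the authors' deposited table gave 0.41 (SE 0.17, Wald adjusted p = 0.0928) for HLA-B, 0.21 (SE 0.17, Wald adjusted p = 0.518) for HLA-C and 0.23 (SE 0.15, Wald adjusted p = 0.389) for B2M. HLA-B and HLA-C are related in sequence and their annotated exons overlap on the same strand, so some reads may be assigned to either. NLRC5, the activator of class I promoters, had 0.09 (SE 0.28) there and -0.32 (SE 0.31) in the HCT116 double knockdown in the authors' deposited tables.

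**Figure D4:**
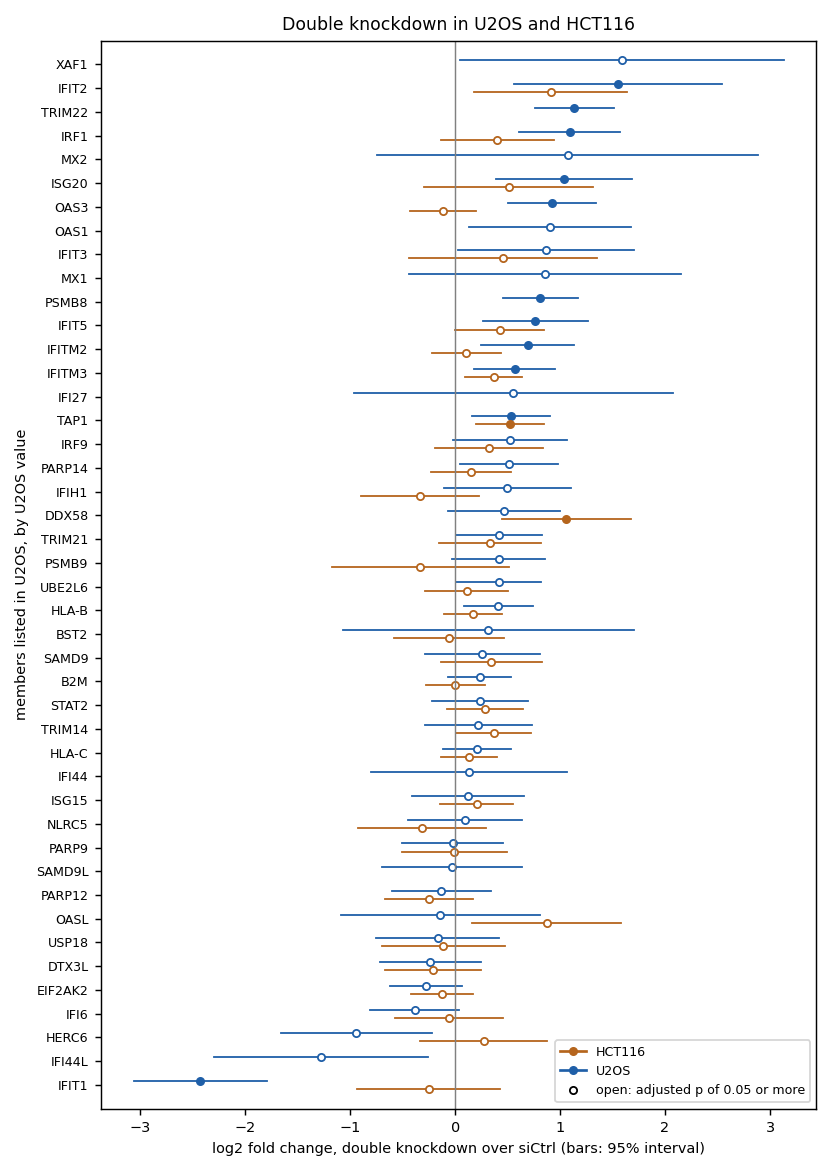
Log2 fold change over siCtrl in the double knockdown (x axis, bars are 95% intervals) of the 44 members listed in U2OS (blue), ordered by that value, with HCT116 (brown) where listed and filled points where the adjusted p is under 0.05. TAP1 is filled in both lines at 0.53 and 0.52, DDX58 in HCT116, and IFIT1 stands alone at the lower end in U2OS.

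Whether a member responded differently in the 2 lines was tested on the difference of the log2 fold changes, which come from separate libraries. In the double knockdown 2 of the 34 members listed in both lines passed (5.88%), against 1.27% of all genes. There, 5 members and 9.49% of all genes had an unadjusted p under 0.05. Those of the 5 that did not pass were HERC6 at -1.21 (SE 0.48), IFIH1 at 0.83 (SE 0.42) and IFITM2 at 0.59 (SE 0.28). The IFIT1 response was lower in U2OS than in HCT116 by a log2 difference of -2.17 (SE 0.48, normal test of the difference, adjusted p = 0.00225), from -2.43 and -0.25 in the authors' deposited tables. The OAS3 response was higher in U2OS by 1.04 (SE 0.27, normal test of the difference, adjusted p = 0.0159), from 0.92 and -0.12 in the authors' deposited tables. With siMYBL1, 0 of 39 members passed this normal test, against 0.0594% of all genes. An unadjusted p under 0.05 was reached by 2, IFIT1 at -1.28 (SE 0.51, adjusted p = 0.614) and EIF2AK2 at -0.45, and by 4.79% of all genes. With siMYBL2, 0 of 35 passed, against 0.215% of all genes. Here 1 had an unadjusted p under 0.05, IFITM2 at 0.55 (SE 0.27), as did 4.41% of all genes. For DDX58, called in HCT116 only, the U2OS minus HCT116 difference was -0.71 (SE 0.40) with siMYBL2 and -0.59 (SE 0.42) in the double knockdown, with 95% intervals from -1.49 to 0.07 and from -1.41 to 0.22. The TAP1 difference in the double knockdown was 0.01, with an interval from -0.48 to 0.50.

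**Figure D5:**
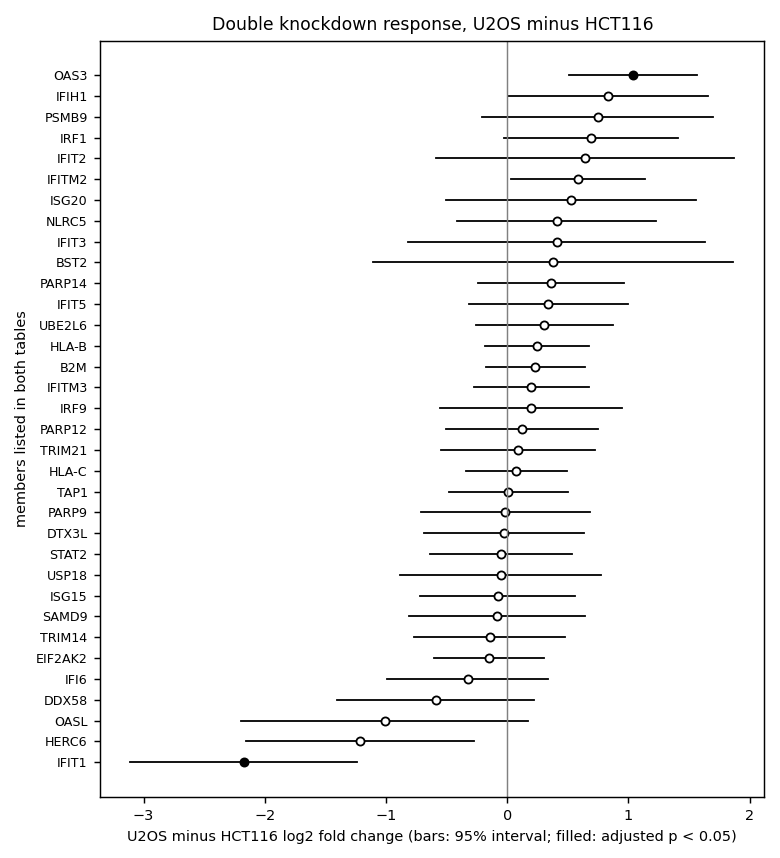
Difference of the double knockdown responses, U2OS minus HCT116, in log2 fold change (x axis, bars are 95% intervals) for the 34 members listed in both lines, with filled points where the adjusted p of the difference is under 0.05. OAS3 at 1.04 and IFIT1 at -2.17 are filled, and most of the other intervals span 0.

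The double knockdown was also set against each single one. The siCtrl libraries are shared, which makes the summed error too large and, where the siCtrl values cancel, the calls too few. In U2OS against siMYBL1, 1 of 41 members passed, against 1.54% of all genes: IRF1, higher in the double knockdown by 1.39 (SE 0.37, normal test of the difference, adjusted p = 0.0137). The siCtrl levels implied for IRF1 in U2OS span a factor of 1.24 over the 3 comparisons. Those of the double knockdown and siMYBL1 also differ, so siCtrl does not fully cancel in this difference. Whether the IRF1 call would stand without that gap was not tested. An unadjusted p under 0.05 was reached by 10 of the 41 members and by 6.96% of all genes. All 10 were higher in the double knockdown, and of these IRF1 alone passed. The others include TRIM22 at 0.83 (SE 0.29), OAS3 at 0.85 (SE 0.34) and PSMB8 at 0.54 (SE 0.26). In U2OS against siMYBL2, 1 of 42 passed, against 1.05% of all genes: IFIT1, lower in the double knockdown by -2.12 (SE 0.42, normal test of the difference, adjusted p = 1.20e-04). An unadjusted p under 0.05 was reached there by 2 members, IFIT1 and IRF1, and by 5.57% of all genes, and IRF1 at 0.84 (SE 0.35, adjusted p = 0.552) did not pass. IFIT1 in the double knockdown minus siMYBL1 was -0.73 (SE 0.48), with an interval from -1.67 to 0.20, and did not pass. In HCT116, 0 of 37 members passed the normal test against siMYBL1 and 0 of 37 against siMYBL2, where 1.28% and 0.645% of all genes did. An unadjusted p under 0.05 was reached by 3 members against siMYBL1, DDX58 at 1.13 (SE 0.46), STAT2 and TAP1, and by 0 against siMYBL2. Of all genes 5.64% and 3.25% reached it.

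The members were then described by the promoter letters shown above, in the U2OS double knockdown, where 6.55% of all genes were called higher and 6.06% lower. Of the 21 listed members with the ISRE letters 5 were called higher and 1 lower, with a median log2 fold change of 0.32. Of the 16 listed members with a promoter but no ISRE letters 2 were called higher and 0 lower, with a median of 0.41. The 9 listed members with the GAS letters all had values above 0, where 50.8% of all genes did, with 3 called higher and a median of 0.55. With siMYBL2, 9 of 9 in U2OS and 8 of 8 in HCT116 were also above 0. With siMYBL1 it was 4 of 8 in U2OS and 6 of 11 in HCT116, and in the HCT116 double knockdown 5 of 6. The 28 listed members without these letters had 19 values above 0, 4 called higher, 1 called lower and a median of 0.23 in the U2OS double knockdown. These are counts over members, with no test.

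Genes upstream of the members were counted from further lists, and in the U2OS double knockdown these counts stand beside 6.55% of all genes called higher and 6.06% called lower. Of 10 interferon genes none was listed in any U2OS table or in the siMYBL2 and double knockdown tables of HCT116, and IFNE alone was listed with siMYBL1 in HCT116, where the authors' deposited table gives it a base mean of 4.56. Of 12 receptor and JAK-STAT genes 1 was called higher in the U2OS double knockdown, the interferon gamma receptor chain IFNGR2 at 0.88 (SE 0.19, Wald adjusted p = 1.27e-04) in the authors' deposited table, a gene named after its value was seen. The kinases JAK1 and TYK2 and the receptor chains IFNAR1 and IFNAR2 had 0.27, -0.13, 0.37 and 0.37 in that authors' deposited table, none called. The other 5 tables called 0 of these 12 genes by the Wald test, with 0 to 1 at an unadjusted p under 0.05. Of 11 genes of nucleic acid sensing and its adaptors 9 were listed in the U2OS double knockdown and 2 called higher, IFI16, a DNA sensor, at 0.69 (SE 0.21) and TLR3, a receptor for double-stranded RNA, at 1.40 (SE 0.41) in the authors' deposited table, both named after their values were seen. STING1, the adaptor of cytosolic DNA sensing, rose by 1.61 (SE 0.49, Wald adjusted p = 0.0253) in U2OS with siMYBL2 in the authors' deposited table, at a base mean of 64.4, and had 1.14 (SE 0.53, Wald adjusted p = 0.166) in the double knockdown. CGAS, the sensor upstream of it, was listed only in U2OS, at 0.00 (SE 0.27), 0.20 (SE 0.26) and 0.18 (SE 0.28), and MAVS, the adaptor of RIG-I, had 0.04 (SE 0.21) in the U2OS double knockdown in the authors' deposited tables.

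A list of 50 further interferon-stimulated genes was counted in the same way. In the U2OS double knockdown 43 were listed, 8 were called higher and 1 lower, against 6.55% and 6.06% of all genes, with a median of 0.29. This list too was chosen with earlier results of these data known. GBP3, a guanylate-binding protein, rose by 0.94 (SE 0.30, Wald adjusted p = 0.0380) with siMYBL1 and 1.74 (SE 0.34, Wald adjusted p = 1.25e-05) in the double knockdown, per the authors' deposited U2OS tables. The apolipoprotein L genes moved apart: APOL6 rose by 0.84 (SE 0.26, Wald adjusted p = 0.0259) with siMYBL2 and 0.79 (SE 0.28, Wald adjusted p = 0.0371) in the double knockdown, whereas APOL1 fell, with -1.19 (SE 0.27, Wald adjusted p = 5.60e-04) and -1.09 (SE 0.26, Wald adjusted p = 7.18e-04), in the authors' deposited tables. In HCT116 the Wald test called 0 of 43, 0 of 33 and 0 of 29 listed genes of this list, with 1, 3 and 9 at an unadjusted p under 0.05. Of 22 further antigen presentation genes 19 were listed in the U2OS double knockdown and the Wald test called 0, with 2 at an unadjusted p under 0.05. TAP2, the partner of TAP1, had 0.13 (SE 0.19) and the tapasin gene TAPBP 0.09 (SE 0.19) in the authors' deposited table.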

How the data were processed

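RNA-seq of 16 libraries was available as 6 tables of the authors' comparisons. cutadapt 4.4, Salmon 1.10.1, DESeq2 1.40 and hg38 are named in the submitters' processing notes. The settings, annotation, filters and strand use were not given in the sources used here. Each deposited base mean is a signal: a gene's mean normalized count over the 4 libraries of a table. The deposited log2 fold change has its standard error, and the deposited Wald statistic, a score, is their ratio. The deposited p-value is 2-sided, and the deposited adjusted p-value equals a Benjamini-Hochberg adjustment over all listed genes. From these were computed 95% intervals, implied group levels, and 7 tests of differences (difference over the root of the summed squared SE, normal p, Benjamini-Hochberg over all genes in both tables), with Python 3.11.15, pandas 2.3.3 and scipy 1.17.1. Only the tests between the lines were tried on simulated data, with independent errors and a base mean of at least 100. Those of double against single knockdown, which share siCtrl, were not. Any member could be named, with full values for those called and for the highest and lowest of each role at a base mean of at least 100. Other pathway genes were named where called in at least 2 tables or where they stand for a core step of the pathway. IFNGR2, IFI16 and TLR3 meet neither rule and were named after their values were seen. Others called in U2OS that meet neither rule were left out, among them LAP3 and CALR, called lower, and UBA7, called higher. The members and lists were chosen with earlier results of these data known. Alternatives were a base mean minimum of 100, genes listed in all 6 tables, an adjusted p threshold of 0.1 and centring on the median gene. Exon overlaps come from GENCODE 29. Some genes that the naming rule takes are not reported here.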

Additional observations from a re-analysis of the deposited data

Results flagged for a closer look

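Among the members, 2 responded differently in the 2 cell lines by the normal test of the difference. The IFIT1 response to the double knockdown was lower in U2OS than in HCT116 by a log2 difference of -2.17 (SE 0.48, adjusted p = 0.00225). The OAS3 response was higher in U2OS by 1.04 (SE 0.27, adjusted p = 0.0159).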

How the results depend on the processing

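Of 76 alternative values of the counts of called members, 74 stayed within 1.5 times the reported count. Many of the 74 set a count of 0 beside a reported count of 0, so they say little on stability. With p-values adjusted over the 12069 genes listed in all 6 tables, members called higher in U2OS with siMYBL2 were 1 and not 2, since TRIM22 is not listed in every table. With an adjusted p threshold of 0.1, members called lower in the U2OS double knockdown were 3 and not 1, with HERC6 and IFI44L joining IFIT1. Members called higher in the U2OS double knockdown were 9 and not 10 with the base mean minimum, which removes IFIT2. Over the genes listed in all 6 tables they were 8, since PSMB8 and TRIM22 are not listed in every table. Where a setting kept the gene, no call of a single gene was lost or changed direction with the base mean minimum, the genes listed in all 6 tables or the centring. The threshold of 0.1 can only add calls. No paired analysis was possible because the tables hold no values per library, and leaving out each replicate could not be run for the same reason. Depth per library is unknown, so the precision of each value is given by its SE alone.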
